A study of Rattus norvegicus with 12 samples.

Results

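RNA of rat liver collected 12 h after 2/3 partial hepatectomy (PH) was compared with RNA of liver collected at the time of PH (0 h), to ask which genes of the remnant had moved by that time, and how the acute phase genes stood against the genes of liver metabolism. The comparison used 6 of the 12 columns of the series, 1 column for each of 3 treatments at each time, paired within the treatment. Genes averaging 1 RPKM or more across all 12 columns were kept, 8459 in number, and 263 of them had moved at least 2-fold in the same direction in all 3 pairs. RPKM are reads normalized to transcript length and to the reads of the library.

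All rats were male Sprague Dawley rats of 4 to 5 months, all underwent PH, and all carried a duodenal catheter with continuous saline. Control rats received a sham biliary fistula 24 h before PH. The other rats received a biliary fistula, which drains bile and its bile acids to the outside, and in one of these groups sodium taurocholate was infused into the duodenum from 12 h before PH. The 2 fistula groups are called here by the prefix of their columns, BA and BF, since the sources conflict. The sample descriptions give BA as the fistula alone and BF as the fistula with infusion, and the paper gives the names the other way round. By qPCR the paper reports Cyp7a raised before PH in rats with the fistula alone and this change reversed by the infusion. Among the columns at 0 h BF had the highest CYP7A1, as given below, which goes with the paper's names. The change from 0 h to 12 h within a pair does not depend on which is right. Each column stands for 4 rats, 1 sequenced alone and 3 combined, and the authors averaged the runs. No liver was taken 12 h after a sham PH, so that the effects of PH, of anaesthesia, of food intake and of time of day cannot be told apart. In whole liver, fewer cells of a type and less RNA per cell cannot be told apart either.

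The hepatocyte carries most of the metabolism of the body: it makes glucose and urea, breaks down amino acids, builds and burns fatty acids, turns cholesterol into bile acids and detoxifies drugs with cytochromes P450 and conjugating enzymes. It also secretes most plasma proteins. In the acute phase response to injury, IL-6 acting through STAT3, together with IL-1 and C/EBP factors, raises one set of these proteins, among them fibrinogen, haptoglobin, hemopexin and, in the rat, alpha 2-macroglobulin, while albumin and other so-called negative acute phase proteins are made less. After PH the remnant must keep up these functions while its hepatocytes prepare to divide.

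The summed RPKM of all genes were between 727435 and 785092 in the 6 columns, of which the 10 top genes of a column held between 31.5% and 41.0%. The number of reads behind the columns is unknown. Of the hepatocyte markers, 14 of 15 were found and all 14 passed the filter, with ALB at 41049 RPKM or more in every column. The BF column at 12 h also held pancreatic acinar RNA: of 31 acinar markers found, 20 were at 1 RPKM or more in it and below 1 RPKM in the other 5 columns, led by the chymotrypsinogen gene CTRB1 at 84.7 RPKM, which was at 0 RPKM in Control and 0 RPKM in BA at that time. Its part in the results was not tested, and the counts without the BF pair are given below.

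With 1 column per treatment and time there is no replicate. The spread given with each mean is the SD over the 3 pairs, which holds the differences between treatments as well as those between rats. Genes were tested with limma on log2(RPKM + 1) in the 6 columns with the pair as a block and Benjamini-Hochberg adjustment over all 8459 genes, and the p weighs the size of the change against its spread over the 3 treatments, with the spread moderated toward that of genes of like level. It does not say that the change was alike in the 3 treatments. "Rose" and "fell" are kept for genes that passed. Values are listed in the order Control, BA, BF, and a change is on the log2(RPKM + 1) scale, which understates the change of weakly expressed genes.

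At 12 h, 35 genes were at least 2-fold higher in all 3 pairs (0.414% of those tested) and 228 at least 2-fold lower (2.70%). By limma 604 genes rose (7.14%) and 1556 fell (18.4%). The 2 rules use the same columns and are not separate evidence. Both chose 28 of the higher and 227 of the lower genes. XBP1, NR1I2, FOXA1, PROX1, PRLR and CXCL1 are named below although chosen after their values were seen. The 7 higher genes without an adjusted p below 0.05 were A2M, LCN2, CXCL1, S100A8, S100A9, FGG and FGB. Each was higher in all pairs, but by the most in Control, where it had started lower. The median of all genes was itself shifted, to -0.16, -0.13 and -0.05 in the Control, BA and BF pairs and to -0.12 in the mean, beside the growing share of the acute phase genes given below. After rescaling of each column on its median gene, limma called 1034 genes higher and 1141 lower, and after rescaling to the total without the 18 most abundant genes 1646 higher and 828 lower. All 35 higher genes remained past 2-fold under both scalings, and 183 and 140 of the 228 lower genes. Of the genes named below, JAK1 no longer passed limma under either scaling, and F12, HMGCS1, IL6ST and PON1 no longer under the second, with the direction kept. The order of lower over higher genes at 2-fold was kept (140 against 86 under the second), and the order of the limma counts was not. Without the filter on low values limma called no gene in either direction (12388 genes, 4101 with an unadjusted p below 0.05, smallest adjusted p 0.0504).

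The single pairs differed in their counts. At least 2-fold, 335 genes were higher (3.96%) and 841 lower (9.94%) in the Control pair. In the BA pair 109 were higher (1.29%) and 488 lower (5.77%), and in the BF pair 208 (2.46%) and 436 (5.15%). With the 2-fold rule on 2 pairs only, 47 genes were higher and 259 lower without Control, 122 and 333 without BA, and 70 and 351 without BF. Without the Control pair, 99 genes rose and 425 fell by limma. The counts were 206 and 495 without the BA pair, and 42 and 275 without the BF pair, in which the acinar RNA lay. Of 98 genes named here that passed limma, 59 did so without the Control pair, 68 without BA and 46 without BF, and all kept their direction. The members nearest to the 2-fold limit were FGG, FGB and SOCS3 inside it on the higher side, with a smallest pair change of 1.01, 1.02 and 1.02, and SLC35B1, CDR2 and CALU outside it at 0.98 each. On the lower side CYP2C, MTSS1 and GSDMD lay inside at 1.00, 1.01 and 1.01 in size, and CALCRL, SLFN3 and HAGH outside at 1.00, 0.99 and 0.99.

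The 3 times after PH share the 0 h columns and are set side by side without a test. At least 2-fold in all pairs, 145 genes were higher at 4 h (1.71%), 35 at 12 h and 215 at 24 h (2.54%), while 231 were lower at 4 h (2.73%), 228 at 12 h and 56 at 24 h (0.662%). With all pairs, the number of genes was thus not highest at 12 h, whereas the metabolic lists were lowest then. Of 14 lists of metabolic genes, 13 had their lowest median at 12 h, the cytochromes P450, cholesterol synthesis and fatty acid synthesis among them, and the oxidative phosphorylation list was the exception, with -0.03 at 4 h, 0.06 at 12 h and 0.42 at 24 h. The median over the 324 members was -0.23 at 4 h, -0.48 at 12 h and -0.02 at 24 h. Over all genes it was -0.20, -0.12 and 0.21, so that part of the difference between the times was shared by all genes. The lowest time of each list was not taken relative to all genes. The BA column at 4 h stood apart, with ALB at 303637 RPKM. That was 30.9% of its summed RPKM, against 11.2% in Control and 10.3% in BF. The summed RPKM at 4 h were 732108, 982826 and 765308, so that the total in BA was larger too. The median change of all genes at 4 h was -0.19, -0.32 and -0.07. Whether ALB lowered the other values of the BA column was not tested. In the Control and BF pairs alone, 189 genes were higher and 263 lower at 4 h, 122 and 333 at 12 h, and 479 and 104 at 24 h, so that without the BA pair the lower genes were most numerous at 12 h. This split was added after the data were seen. All 14 lists were then lowest at 12 h. Within the single pairs it was 11 of 14 in each.

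**Figure D1:**
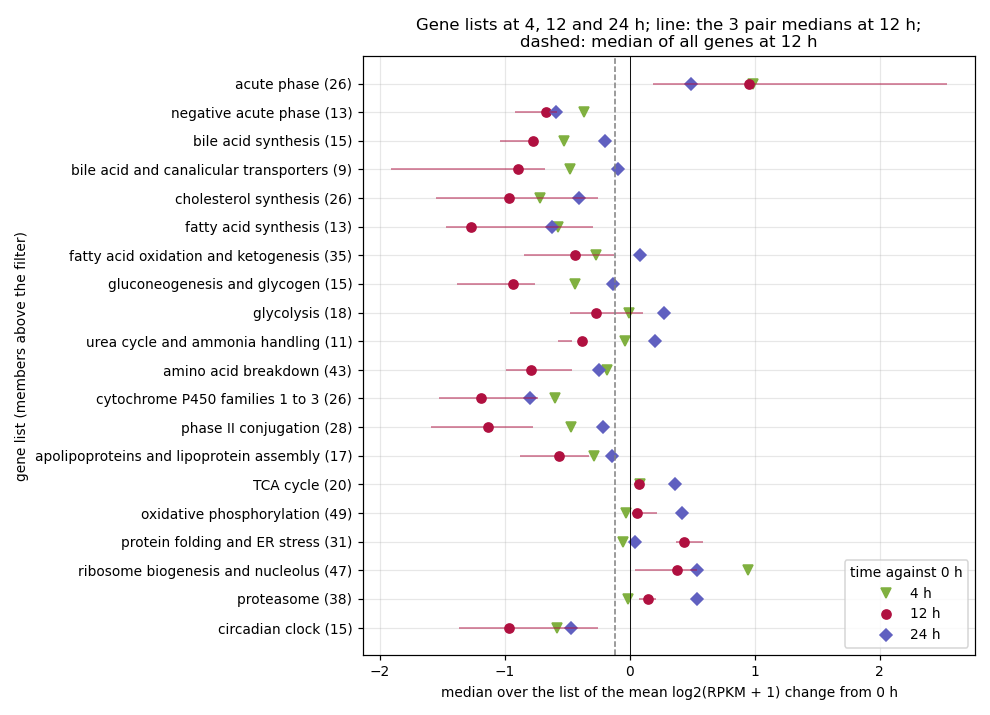
Median change from 0 h on the log2(RPKM + 1) scale (horizontal axis) for 20 gene lists (vertical axis, number of members above the filter in parentheses) at 4 h (triangles), 12 h (circles) and 24 h (diamonds) after PH. The thin line spans the 3 pair medians at 12 h and the dashed line is the median of all genes at 12 h, -0.12: the metabolic lists lie to its left at 12 h except the TCA cycle (0.07) and oxidative phosphorylation (0.06), and the acute phase list lies to its right at 0.95.

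The acute phase genes filled a growing part of the liver's messenger RNA. The 26 genes of the list took 10.3%, 27.2% and 25.6% of the summed RPKM at 0 h and 37.3%, 41.1% and 41.7% at 12 h, while the 324 metabolic genes went from 17.7%, 12.3% and 14.0% to 9.63%, 8.44% and 9.19%. On the acute phase side Control was thus far below BA and BF at 0 h, and the 3 treatments were close at 12 h. The median span between the highest and the lowest treatment was 1.77 over the acute phase genes at 0 h, 0.79 at 4 h, 0.45 at 12 h and 0.64 at 24 h, and over all genes 0.34, 0.41, 0.29 and 0.28. At 0 h 19 of the 26 differed at least 2-fold between treatments, and at 12 h 4 did. Control was the lowest at 0 h for 23 of the 26.

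Of the 26 acute phase genes, 6 were at least 2-fold higher in all pairs (23.1%, against 0.414% of all genes) and no gene was lower by that rule. By limma only STEAP4 and SERPINA3N rose, a share of 7.69% that is near the 7.14% of all genes, and no member fell. At an unadjusted p below 0.05, 9 were higher and 1 lower. In all 3 pairs 14 members were above 0, against 22.2% of all genes, and 1 was below. The median change was 0.95, made of 2.54 in Control, 0.51 in BA and 0.19 in BF, and it was 0.30 without the Control pair. In Control 19 members were at least 2-fold higher at 12 h, in BA 8 and in BF 8. A2M, alpha 2-macroglobulin, was at 7.61, 1892 and 1772 RPKM at 0 h and 4637, 9188 and 7272 RPKM at 12 h (changes of 9.07, 2.28 and 2.04, adjusted p 0.085). All 3 columns at 12 h were above all 3 at 0 h, and the Control column at 0 h stood far below the other 2. LCN2, lipocalin 2, which withholds iron from bacteria, had the same form, at 3.03, 1388 and 808 RPKM and then 2220.1, 3847 and 4228 RPKM (adjusted p 0.099).

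The 3 chains of fibrinogen, the clot protein, had like changes. FGB was at 4764, 15792 and 10930.1 RPKM at 0 h and 32075, 31943 and 28210.0 RPKM at 12 h, a change of 1.71 ± 0.92 (SD over 3 pairs, adjusted p 0.052). FGG changed by 1.72 ± 0.89 (adjusted p 0.0502) and FGA by 1.67 ± 0.95 (adjusted p 0.056), and FGA missed the 2-fold rule in the BA pair only, at 0.87. The 12 h levels of the 3 genes lay between 26458 and 32814 RPKM. With SERPINA3N and A2M these genes made up 2.13%, 7.27% and 5.01% of the summed RPKM at 0 h and 15.5%, 15.9% and 14.5% at 12 h. SERPINA3N, a protease inhibitor, rose from 1988, 7726 and 5622 RPKM to 16864, 15953 and 16429 RPKM, by 1.89 ± 1.06 (adjusted p 0.044). STEAP4, a metalloreductase, rose from 25.4, 57.1 and 33.7 RPKM to 317, 246 and 214 RPKM, by 2.77 ± 0.76 (adjusted p 0.011), with every 12 h column above every 0 h column. SERPINA3N belongs to a cluster of near-identical genes in the rat, and its reads may be shared with them. It is described as serine protease inhibitor 2c. The genes described as 2a and 2b went the other way, at least 2-fold lower in all pairs, with mean changes of -1.83 and -1.99. These genes were chosen after their values were seen and do not enter the counts of named genes. Sharing of reads was not tested.

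Other acute phase genes differed mainly in the Control pair. ORM1, alpha 1-acid glycoprotein, went from 986, 15033 and 18261 RPKM to 23834, 31322 and 33818 RPKM, and HPX, hemopexin, from 6349, 26538 and 26231 RPKM to 31722, 38137 and 38386 RPKM. HP, haptoglobin, was at 12347, 40904 and 44376 RPKM and then 36977, 46778 and 53169 RPKM, with changes of 1.58, 0.19 and 0.26. LBP, which binds bacterial lipopolysaccharide, changed by 3.77, 0.59 and 0.75 and KNG1, kininogen, by 2.66, -0.29 and 0.21. In each of these 5 genes the BA and BF columns at 0 h were already above Control at 0 h at least 3-fold, and no adjusted p was below 0.1. HAMP, the iron hormone hepcidin, stood out from this form. Its columns at 0 h were close, at 1066, 806 and 726 RPKM, and those at 12 h were not, at 4535, 1139 and 771 RPKM. CRP, SERPINA1, APCS and ITIH3 differed by less than 1.5-fold between the times in every pair, CRP being at 13016, 13069 and 16089 RPKM and then 13967, 10595 and 12707 RPKM. The metallothioneins, small metal-binding proteins that share sequence, split by pair. MT2A was at 38.0, 238 and 314 RPKM and then 1663, 979 and 206 RPKM.

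**Figure D2:**
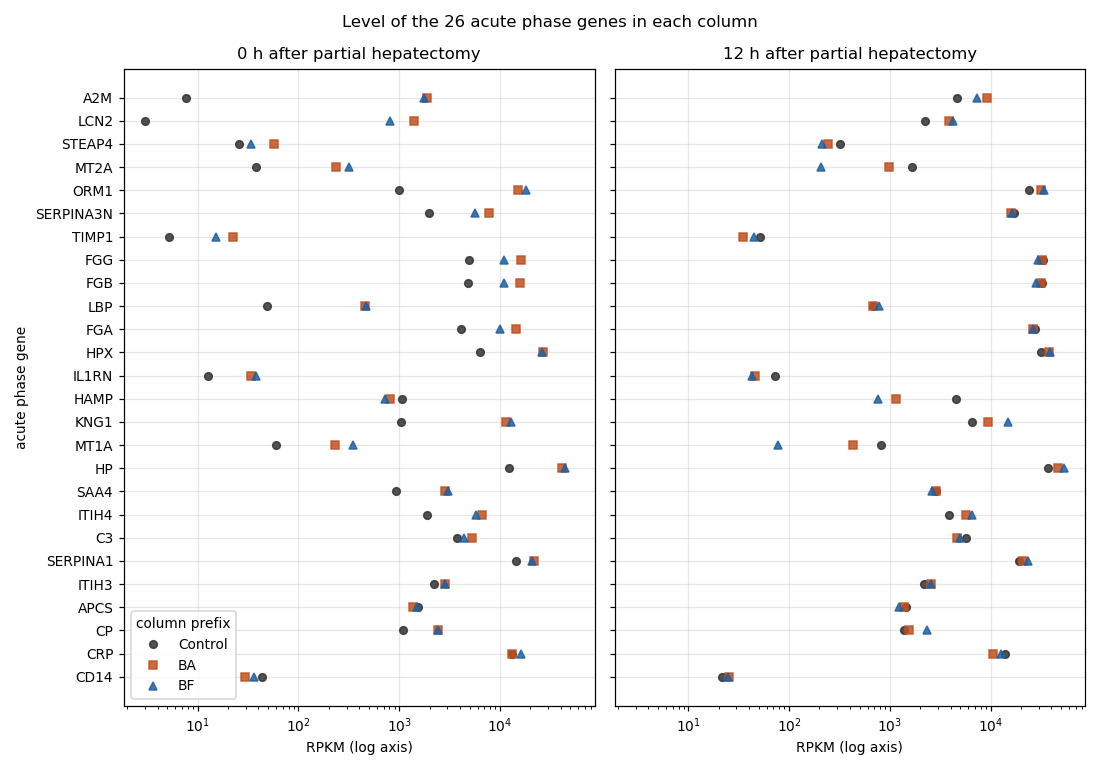
RPKM on a log axis (horizontal) of the 26 acute phase genes (vertical, ordered by mean change) at 0 h (left) and 12 h (right), with 1 symbol per column for Control (circles), BA (squares) and BF (triangles). At 0 h the Control symbol lies left of the others for 23 of the 26 genes, and at 12 h the 3 symbols lie close, apart by 2-fold or more for 4 genes.

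The promoters of the acute phase genes are known for elements bound by STAT3, of the form TTCNNNGAA, in which N is any base. The 250 bases before the start of the gene were read from the RefSeq promoters of the GRCr8 assembly, which is not the build of the RPKM table. They were found for 28 of the 35 higher and 154 of the 228 lower genes, and the letters were searched on both strands, which are equal for this motif. Of the 28 higher genes 4 held it (14.3%), of the 154 lower genes 11 (7.14%), and of all 27457 promoters in the reference 2066 (7.52%). Of the genes tested here with a promoter in the reference, 5.77% held it. The C/EBP form TTGCNNAA, searched on both strands, was in 5 of the 28 (17.9%), in 14.3% of the lower genes and in 9.20% of all promoters. No test was made on these shares, and a match is no proof of a site. The 4 windows with the STAT3 form are shown since they belong to the genes that were higher in every pair, with the matching letters in capitals. They are FGB (chr2:170700876-170701125, minus strand), SERPINA3N (chr6:129088142-129088391, plus strand), STEAP4 (chr4:27054770-27055019, minus strand) and REG3B (chr4:112419526-112419775, plus strand), each 5′ to 3′ up to the base before the start.
FGB: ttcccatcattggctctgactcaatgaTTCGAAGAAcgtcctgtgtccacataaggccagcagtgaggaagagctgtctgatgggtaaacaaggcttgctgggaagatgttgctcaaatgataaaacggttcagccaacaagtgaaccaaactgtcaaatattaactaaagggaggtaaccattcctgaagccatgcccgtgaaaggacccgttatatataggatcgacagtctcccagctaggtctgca
SERPINA3N: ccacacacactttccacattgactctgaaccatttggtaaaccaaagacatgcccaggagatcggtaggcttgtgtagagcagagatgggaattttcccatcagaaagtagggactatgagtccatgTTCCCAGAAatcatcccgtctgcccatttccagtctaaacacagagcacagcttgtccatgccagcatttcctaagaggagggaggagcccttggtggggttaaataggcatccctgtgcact
STEAP4: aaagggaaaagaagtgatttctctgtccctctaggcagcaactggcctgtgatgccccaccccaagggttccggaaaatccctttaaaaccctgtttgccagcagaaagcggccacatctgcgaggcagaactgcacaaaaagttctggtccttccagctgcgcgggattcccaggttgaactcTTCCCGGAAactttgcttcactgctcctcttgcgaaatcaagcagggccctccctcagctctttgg
REG3B: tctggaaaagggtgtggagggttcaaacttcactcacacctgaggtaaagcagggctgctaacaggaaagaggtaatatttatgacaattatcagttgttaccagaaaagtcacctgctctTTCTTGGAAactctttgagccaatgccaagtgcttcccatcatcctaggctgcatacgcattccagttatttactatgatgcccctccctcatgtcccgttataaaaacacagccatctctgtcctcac
The first matching base lay 223 bases before the start in FGB, 123 in SERPINA3N, 66 in STEAP4 and 129 in REG3B.

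Of the higher genes past both rules, TNFRSF21, a death receptor of the TNF receptor family, had the largest mean change. It rose by 2.80 ± 1.10 (adjusted p 0.017), from 1.05, 7.81 and 2.71 RPKM to 33.2, 36.4 and 16.6 RPKM. SOD2, the superoxide dismutase of mitochondria, rose from 79.0, 104 and 66.9 RPKM to 570.2, 481 and 368 RPKM, by 2.49 ± 0.32 (adjusted p 0.0081), and its pairs were closer to each other than those of TNFRSF21. IL1R2, a decoy receptor for IL-1, rose by 2.18 ± 0.56 (adjusted p 0.011), and IL1R1, the signalling receptor, by 1.46 ± 0.47 (adjusted p 0.015). SOCS3, the feedback inhibitor of STAT3 signalling, rose from 11.3, 17.4 and 12.2 RPKM to 57.0, 36.3 and 28.9 RPKM (adjusted p 0.023).

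Of the 17 members of the IL-6 and STAT3 list above the filter, 3 rose (17.6%, against 7.14% of all genes), namely IL1R1, SOCS3 and JUNB. As many fell, a share of 17.6% that is near the 18.4% of all genes. Among those that fell were the shared receptor subunit IL6ST (-0.53) and the kinase JAK1 (-0.40). In all pairs 6 members were above 0, STAT3 among them without passing limma, and 4 were below. The pair medians were 0.78, -0.09 and -0.10. FABP4, a carrier of fatty acids, rose by 2.42 ± 0.45 (adjusted p 0.0088) and WARS, the tRNA synthetase for tryptophan, by 1.92 ± 0.57 (adjusted p 0.013). REG3B, an antibacterial lectin, rose from 0.59, 0.89 and 0.11 RPKM to 3.63, 7.74 and 9.88 RPKM (adjusted p 0.017). It is also made in the pancreas, and in the Control and BA columns at 12 h, where it was higher too, CTRB1 was at 0 RPKM. Whether acinar RNA added to REG3B was not tested. CXCL1, which attracts neutrophils, was at 1.66, 32.6 and 28.2 RPKM and then 176, 91.0 and 88.7 RPKM (adjusted p 0.078). S100A8 and S100A9, abundant in neutrophils, were higher in all pairs, S100A8 going from 0.63, 9.28 and 8.58 RPKM to 24.4, 21.4 and 20.8 RPKM. Of 16 neutrophil markers found 4 passed the filter, and 1 of these, RETNLG, was lower in all pairs. Among the markers that did not pass it, MPO, ELANE, CAMP, LTF, FPR1 and NGP were at 0.22 RPKM or less in all 6 columns.

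Part of the genes of folding and stress in the endoplasmic reticulum rose at 12 h. Of 31 members 11 rose (35.5%, against 7.14% of all genes), 1 fell and the median change was 0.44, with 0.58, 0.39 and 0.37 in the 3 pairs. The list's median was -0.05 at 4 h and 0.04 at 24 h. CRELD2 rose by 1.81 ± 0.64 (adjusted p 0.016), from 53.1, 76.8 and 41.8 RPKM to 225, 163 and 207 RPKM. The chaperone gene HYOU1 rose by 1.15 ± 0.37 (adjusted p 0.017) and SEC61A1, of the channel through which secreted proteins enter, by 0.79 ± 0.10 (adjusted p 0.018). HSPA5, the main chaperone of this compartment, went from 738, 807 and 647 RPKM to 1295, 1079 and 1186 RPKM (0.70 ± 0.25, adjusted p 0.044). XBP1, a transcription factor of the unfolded protein response, was at 294, 174 and 153 RPKM and 209, 187 and 152 RPKM (adjusted p 0.56), and HERPUD1, of protein degradation at this membrane, changed by -1.38, -0.71 and -0.24. BHLHA15, a transcription factor of secretory cells, rose by 1.52 ± 0.12 (adjusted p 0.0081). It stands on the list of acinar markers, and its changes were 1.48, 1.43 and 1.65. The part of acinar RNA in them was not tested. Of the 47 genes of ribosome biogenesis 17 rose (36.2%) and no member fell, with a median of 0.38 at 12 h beside 0.94 at 4 h. NOL5, a component of small nucleolar RNPs listed under its older symbol, rose by 1.06 ± 0.62 (adjusted p 0.04). Of 38 proteasome genes 6 rose (15.8%, against 7.14% of all genes) and 1 fell (2.63%, against 18.4%).

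The negative acute phase genes were mostly lower. Of 13 members 3 were at least 2-fold lower in all pairs (23.1%, against 2.70% of all genes). By limma 4 fell (30.8%, against 18.4%), and the median change was -0.67. ALB, serum albumin, went from 99928, 87628 and 90662 RPKM to 45303, 41049 and 41756 RPKM, changes of -1.14, -1.09 and -1.12 that hardly differed between the pairs. Its share of the summed RPKM went from 13.4%, 11.4% and 11.5% to 6.18%, 5.64% and 5.60%. Its adjusted p was nonetheless 0.12. SERPINA6, which carries corticosteroids in plasma, fell from 607, 312 and 322 RPKM to 67.3, 28.4 and 58.2 RPKM, a change of -3.01 ± 0.50 (adjusted p 0.0082), and HRG, histidine-rich glycoprotein, fell by 1.80 ± 0.65 (adjusted p 0.018). PON1 fell by 1.08 ± 0.54 and F12 fell by 0.64 ± 0.10. TTR, transthyretin, was at 20517, 9888 and 10389.6 RPKM and then 10455, 9257 and 5427 RPKM (adjusted p 0.18), with little change in the BA pair. GC and FETUB changed by -0.19 and -0.13 (adjusted p 0.61 and 0.67). Of 34 complement and coagulation genes 11 fell (32.4%, against 18.4% of all genes) and no member rose. PLG, plasminogen, fell by 1.09 ± 0.06 (adjusted p 0.016) and KLKB1, prekallikrein, fell by 1.51 ± 0.44 (adjusted p 0.014).

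Of the 324 members of 14 lists, 50 were at least 2-fold lower in all pairs (15.4%, against 2.70% of all genes) and no member was higher by that rule. By limma 119 fell (36.7%, against 18.4%) and 10 rose. In all 3 pairs 187 members were below 0, against 42.3% of all genes. The median change was -0.48, with -0.61, -0.41 and -0.41 in the Control, BA and BF pairs, closer to each other than those of the acute phase list. A test of the difference between pairs was not possible with 1 column each. The median was -0.35 with columns rescaled on the median gene and -0.22 with columns rescaled without the most abundant genes. The metabolic lists held 21.9% of the 228 lower genes, and 163 of the 228 were in no list.

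The largest fall was of STAC3. It encodes an adaptor protein known from muscle, and it fell from 173, 102 and 45.0 RPKM to 3.63, 0.31 and 0.03 RPKM, a change of -5.67 ± 0.56 (adjusted p 0.0071), and its mean change at 24 h was -5.91. HSD17B2, which inactivates oestradiol and testosterone, fell from 809.9, 245 and 300.1 RPKM to 6.83, 4.14 and 19.2 RPKM, a change of -5.39 ± 1.41 (adjusted p 0.011). AOX3, an aldehyde oxidase, fell by 4.55 ± 0.70 (adjusted p 0.0081) and FMO1, a flavin monooxygenase, fell by 4.18 ± 0.70 (adjusted p 0.0081). In each of these 4 genes all columns at 12 h were below all columns at 0 h. ENPP2, the enzyme autotaxin, fell by 3.21 ± 0.95, NDRG2 fell by 3.20 ± 0.31 and NREP fell by 3.39 ± 0.87 (adjusted p 0.012, 0.0081 and 0.011). RNASE4, a secreted ribonuclease, fell from 1870.0, 1072 and 1271 RPKM to 78.2, 67.7 and 166 RPKM (adjusted p 0.01). It shares its first exons with the angiogenin gene, so that its value is uncertain.

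**Figure D3:**
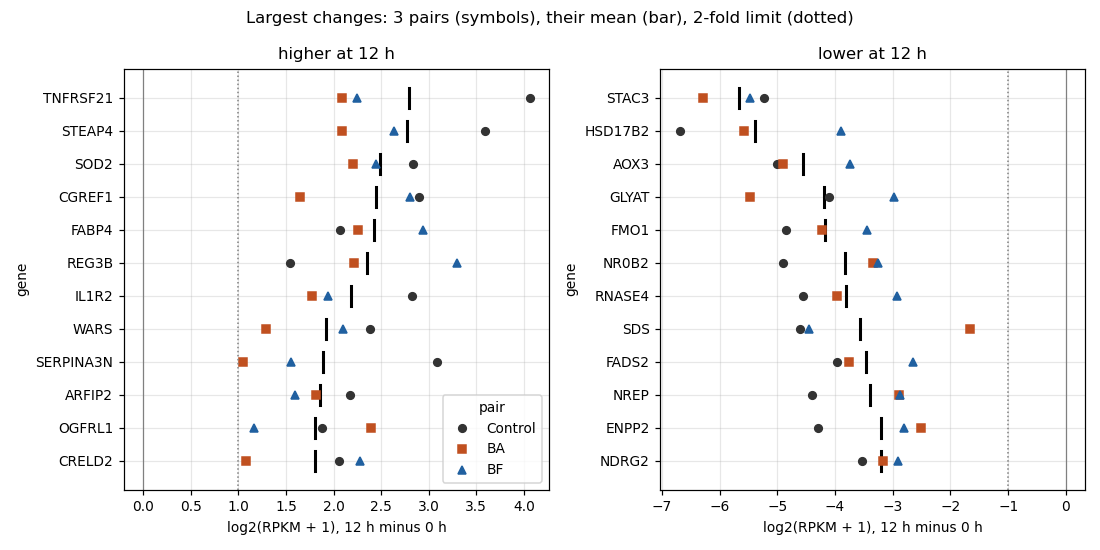
Change from 0 h to 12 h on the log2(RPKM + 1) scale (horizontal axis) of the 12 genes (vertical axis) with the highest (left) and the lowest (right) mean among genes past both rules, with 1 symbol per pair, a bar at the mean and a dotted line at 2-fold. The falls reach further than the rises, to -5.67 for STAC3 against 2.80 for TNFRSF21. A2M, LCN2 and CXCL1, with higher means of 4.46, 4.32 and 3.04, did not pass limma and are not shown. SDS has its BA pair at -1.67 apart from the others at -4.60 and -4.46.

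Of 15 genes of synthesis 6 were at least 2-fold lower in all pairs and 9 fell by limma (60.0%), with no rise. CYP7A1, the rate-limiting enzyme, fell from 60.0, 54.9 and 387 RPKM to 8.53, 3.17 and 136 RPKM, a change of -2.64 ± 1.12 (adjusted p 0.02). The BF column was the highest at both times, and BF at 12 h was above Control and BA at 0 h. At 4 h its levels were 4.59, 1.81 and 13.8 RPKM, below those at 12 h in all 3 treatments. BAAT, which joins bile acids to taurine and glycine, fell from 1385, 1386 and 1028 RPKM to 237, 220.2 and 326 RPKM (-2.28 ± 0.55, adjusted p 0.011). AKR1D1, the steroid 5 beta-reductase, fell by 2.12 ± 0.48 (adjusted p 0.011), AMACR fell by 2.03 ± 0.77 and CYP27A1 fell by 1.28 ± 0.23. CYP8B1, which sets the share of cholic acid, was at 136, 110.2 and 1576 RPKM and then 135, 119 and 767 RPKM (adjusted p 0.4), changed only in the BF pair, where it had started highest.

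Among 9 transporters above the filter 5 fell (55.6%, against 18.4% of all genes). SLC10A1, the sodium-dependent uptake carrier of bile acids, fell from 616, 446 and 536 RPKM to 56.0, 61.9 and 87.6 RPKM, a change of -2.95 ± 0.43 (adjusted p 0.0081), with all 12 h columns below all 0 h columns. SLCO1B2, an uptake carrier of organic anions, fell by 2.17 ± 0.78 (adjusted p 0.016). NR0B2, the nuclear receptor that represses CYP7A1 and is itself switched on by bile acids through FXR, fell from 42.3, 12.7 and 20.2 RPKM to 0.45, 0.36 and 1.21 RPKM, a change of -3.83 ± 0.92 (adjusted p 0.01). FXR itself, NR1H4, fell by 0.87 ± 0.20 (adjusted p 0.015).

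**Figure D4:**
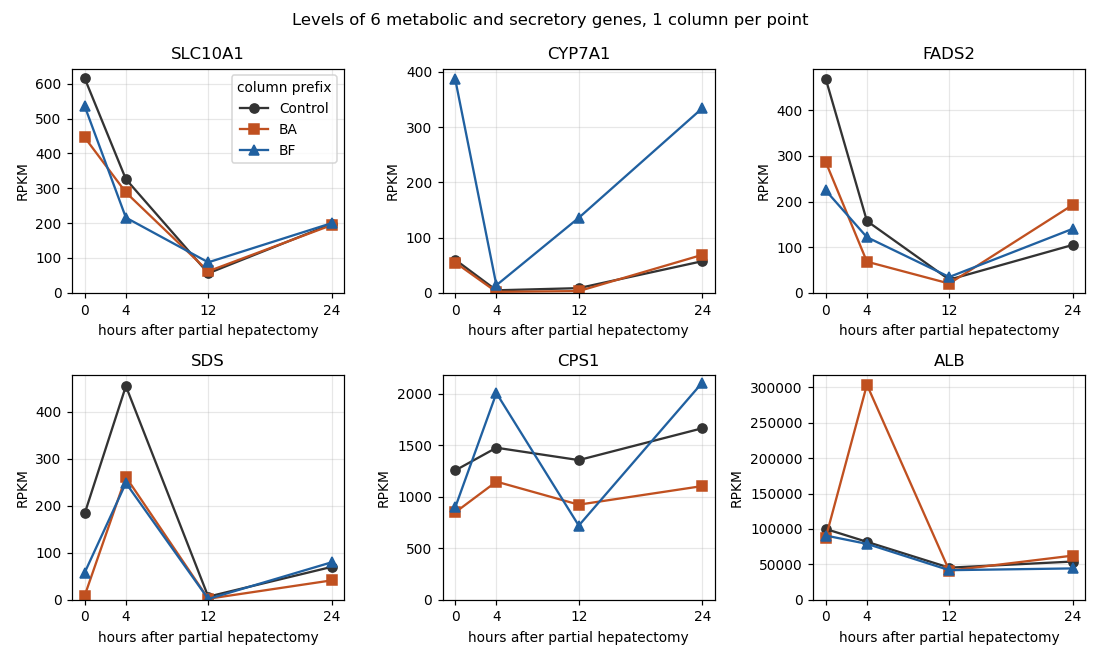
RPKM (vertical axes, from 0) of 6 genes at 0, 4, 12 and 24 h after PH (horizontal axes), with 1 column of 4 rats per point for Control (circles), BA (squares) and BF (triangles). SLC10A1 and FADS2 were lowest at 12 h in all 3 treatments, CYP7A1 was lowest at 4 h, SDS was highest at 4 h before its low at 12 h, CPS1 was higher at 4 h and 24 h than at 12 h in all 3, and ALB in the BA column at 4 h stands apart.

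In lipid synthesis the pairs were further apart. Of 26 genes of cholesterol synthesis 11 fell (42.3%, against 18.4% of all genes) and no member rose, with a median of -0.97. The pair medians were -0.25, -1.55 and -0.71, the fistula columns having started higher at 0 h. HMGCS1, an early enzyme of the pathway, fell from 211, 992 and 833 RPKM to 134, 199 and 287 RPKM (adjusted p 0.035). SC5DL, a late enzyme under its older symbol, was the 1 member 2-fold lower in all pairs (-1.27 ± 0.26, adjusted p 0.013).

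Of 13 genes of fatty acid synthesis above the filter 6 fell (46.2%, against 18.4% of all genes) and no member rose. The median was -1.27, and the pair medians were -0.95, -1.47 and -0.29, smallest in size in BF. FADS2, which desaturates polyunsaturated fatty acids, fell from 469, 287 and 224 RPKM to 28.9, 20.3 and 34.7 RPKM, a change of -3.46 ± 0.71 (adjusted p 0.0091), and ACACB, the mitochondrial acetyl-CoA carboxylase, from 9.77, 9.59 and 11.4 RPKM to 0.63, 0.53 and 0.49 RPKM, a change of -2.86 ± 0.18 (adjusted p 0.0071). THRSP, a lipogenic protein induced by thyroid hormone, fell by 2.83 ± 1.37 (adjusted p 0.025) and ACLY fell by 1.29 ± 0.43 (adjusted p 0.017). SCD1 went against the list, at 50.4, 24.1 and 4.21 RPKM and then 91.7, 27.2 and 17.4 RPKM, without passing the test (adjusted p 0.087). On the oxidation side 8 of 35 genes fell (22.9%), a share near the 18.4% of all genes. The median was -0.44, and it was -0.17 without the Control pair and -0.17 with columns rescaled without the most abundant genes. EHHADH, of the peroxisome, fell by 2.95 ± 0.99 (adjusted p 0.014), ACSL1, which activates fatty acids, fell by 2.44 ± 0.26 (adjusted p 0.0081) and BDH1, of ketone body synthesis, fell by 2.24 ± 0.95 (adjusted p 0.02). PPARA, the nuclear receptor of this pathway, was lower in Control and BA and level in BF, with changes of -2.68, -2.39 and 0.04 (adjusted p 0.085). Of 17 genes of apolipoproteins and lipoprotein assembly 5 fell (29.4%, against 18.4% of all genes) and 1 rose (5.88%, near the 7.14% of all genes). APOF fell by 2.15 ± 0.39 (adjusted p 0.0093) and APOA2 fell by 1.21 ± 0.06 (adjusted p 0.015).

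Of 15 genes of gluconeogenesis and glycogen 8 fell (53.3%, against 18.4% of all genes) and no member rose, with a median of -0.94. PC, pyruvate carboxylase, fell from 178, 136 and 175 RPKM to 42.7, 31.4 and 77.4 RPKM (-1.76 ± 0.52, adjusted p 0.013), PYGL, which breaks down glycogen in liver, fell by 1.58 ± 0.36 (adjusted p 0.011), and G6PC, which releases glucose, fell by 1.30 ± 0.69 (adjusted p 0.032). PCK1 was at 1335, 807 and 1462 RPKM and then 467, 768 and 626 RPKM (adjusted p 0.088), with next to no change in BA. Of 18 glycolysis genes 4 rose (22.2%, against 7.14% of all genes) and 2 fell (11.1%, against 18.4%). LDHA, lactate dehydrogenase, rose from 170.3, 189 and 166 RPKM to 436, 349 and 477 RPKM, by 1.25 ± 0.33 (adjusted p 0.015), and ENO1, PGAM1 and TPI1 rose by 0.78, 0.67 and 0.55.

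Of 43 genes of amino acid breakdown 12 were at least 2-fold lower in all pairs, 26 fell by limma (60.5%) and 1 rose. SDS, serine dehydratase, fell from 184, 8.85 and 57.9 RPKM to 6.60, 2.10 and 1.68 RPKM, a change of -3.58 ± 1.65 (adjusted p 0.023). Its BA column at 0 h was low already, and its levels at 4 h were 455, 261 and 248 RPKM. CTH, which makes cysteine, fell from 1029, 379.8 and 756 RPKM to 62.9, 61.6 and 121 RPKM (-3.08 ± 0.80, adjusted p 0.011), and CDO1, which oxidizes cysteine, fell by 2.34 ± 0.69 (adjusted p 0.013). In the methionine cycle BHMT fell by 2.62 ± 1.21 and MAT1A fell by 1.72 ± 0.34 (adjusted p 0.023 and 0.011), and in tryptophan breakdown KMO fell by 2.80 ± 0.50 and KYNU fell by 1.84 ± 0.63 (adjusted p 0.0082 and 0.015). The 1 rise was of AASS, of lysine breakdown, from 117, 87.1 and 115 RPKM to 528, 191 and 179 RPKM (adjusted p 0.041). TAT, tyrosine aminotransferase, did not move one way, with changes of 1.01, -0.01 and -1.19. Of 11 genes of the urea cycle, which takes up nitrogen from amino acids, and ammonia handling 4 fell (36.4%) and no member was 2-fold lower in all pairs. OTC, the mitochondrial step that makes citrulline, fell by 1.35 ± 0.66 (adjusted p 0.029), and CPS1, the entry enzyme, was at 1255, 848 and 896 RPKM and 1355, 923 and 719 RPKM, a change of -0.03 ± 0.25 (adjusted p 0.91).

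The cytochrome P450 list had the highest share of falls among the 14 metabolic lists. Of its 26 members, which include the nuclear receptor gene NR1I3, 17 fell (65.4%) and no member rose, with a median of -1.19. CYP3A2 fell from 2405, 1569 and 2014 RPKM to 543, 264 and 445 RPKM, a change of -2.30 ± 0.24 (adjusted p 0.0082), CYP2E1, which oxidizes ethanol, fell by 2.07 ± 0.69 (adjusted p 0.016), and CYP2C, the older symbol of the male form Cyp2c11, fell by 1.49 ± 0.42 (adjusted p 0.016). CYP2C12, known as a female form, was at 10.3, 463 and 247 RPKM at first in these male rats and later at 330.3, 266 and 313 RPKM, one of the widest gaps between pairs. Members of the CYP2 and CYP3A families are alike in sequence, and their reads may be shared. NR1I3, the nuclear receptor CAR that governs these genes, is 1 of the 17 and fell from 77.8, 24.0 and 56.6 RPKM to 6.77, 11.2 and 13.5 RPKM (adjusted p 0.031). NR1I2, the receptor PXR, was at 89.5, 63.6 and 64.5 RPKM and 54.8, 56.6 and 51.9 RPKM (adjusted p 0.097).

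Of 28 genes of conjugation 16 fell (57.1%) and 1 rose, with a median of -1.13. GLYAT, which joins glycine to acids, fell from 535, 292 and 338 RPKM to 30.0, 5.59 and 42.0 RPKM, a change of -4.19 ± 1.25 (adjusted p 0.012), the BA column at 12 h being the lowest. GSTA2 fell by 2.57 ± 0.95 and SULT1C3 fell by 2.18 ± 0.79 (adjusted p 0.017 and 0.017), both of gene families with shared sequence. The 1 rise was of NNMT, which methylates nicotinamide, by 1.29 ± 0.57 (adjusted p 0.026). EPHX1, an epoxide hydrolase, fell by 2.24 ± 0.67 (adjusted p 0.013).

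Falls were few in the central pathways of the mitochondria. Of 49 genes of oxidative phosphorylation 3 rose and 1 fell, with a median of 0.06, and of 20 genes of the TCA cycle 2 fell and no member rose, with a median of 0.07. Relative to the median of all genes, -0.12, both lists lay slightly high, and with columns rescaled without the most abundant genes both medians were 0.33. IDH1, the cytosolic isocitrate dehydrogenase counted in the latter list, fell by 0.90 ± 0.34 (adjusted p 0.026).

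Transcription factors of the hepatocyte and of the clock were among the lower genes. Of 23 hepatocyte factors 11 fell (47.8%, against 18.4% of all genes) and no member rose. CEBPA fell from 111, 87.6 and 79.8 RPKM to 37.5, 26.1 and 37.7 RPKM, a change of -1.43 ± 0.33 (adjusted p 0.011). FOXA1 and PROX1 changed by 0.16 and 0.03 (adjusted p 0.38 and 0.86). Of 15 clock genes 7 fell (46.7%) and 1 rose (6.67%, near the 7.14% of all genes). DBP, a clock-driven factor of liver, fell from 77.6, 37.8 and 29.1 RPKM to 14.6, 2.13 and 6.98 RPKM, a change of -2.63 ± 0.90 (adjusted p 0.014), and NR1D1, REV-ERB alpha, from 70.0, 16.0 and 17.8 RPKM to 3.75, 3.30 and 5.10 RPKM (adjusted p 0.026). ARNTL, which encodes BMAL1, rose from 4.72, 4.31 and 5.84 RPKM to 11.2, 8.58 and 8.09 RPKM (adjusted p 0.029). The clock hours of collection are not given in the sources used here, so that time of day cannot be told apart from time after PH for these genes or for others that follow the clock.

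Among markers of other liver cells, 7 of 19 macrophage markers fell (36.8%, against 18.4% of all genes) and no member rose. Their median was -0.31, and it was -0.04 with columns rescaled without the most abundant genes. EMR1, a surface marker of macrophages, fell by 0.96 ± 0.07 (adjusted p 0.011). Of 15 stellate cell and matrix markers 7 fell (46.7%). COL3A1 fell by 1.03 ± 0.28 and LRAT, which stores retinol, fell by 1.67 ± 0.18. FN1, fibronectin, which hepatocytes secrete too, was the 1 rise, by 0.96 ± 0.44 (adjusted p 0.036). HGF, the growth factor for hepatocytes made by these cells, rose from 7.40, 10.2 and 7.90 RPKM to 27.8, 29.9 and 15.4 RPKM, by 1.37 ± 0.46 (adjusted p 0.015). The carrier IGFALS fell by 2.01 ± 0.37 (adjusted p 0.0093) and the receptor MET, to which HGF binds, fell by 0.70 ± 0.16 (adjusted p 0.018). Of 29 genes of S phase entry 2 rose (6.90%, near the 7.14% of all genes) and 1 fell (3.45%, against 18.4%). Of 25 mitosis genes none passed limma in either direction (at an unadjusted p below 0.05, 0 were higher and 0 lower), with a median of -0.21 at 12 h beside 4.30 at 24 h. Without the BA pair the median at 12 h was 0.08.

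In some genes the pairs went opposite ways. RPL30, a ribosomal protein gene with many pseudogene copies, so that its value is uncertain, was at 13.1, 0.18 and 0.52 RPKM at 0 h and 0.87, 34.6 and 33.1 RPKM at 12 h, the widest gap between pairs of all genes tested (7.83). MT1A, a metallothionein, changed by 3.76, 0.89 and -2.16, higher in Control and lower in BF. FGF21, a hormone of the fasted liver, changed by -1.82, 2.62 and 1.69, lower in Control only, and EGR1, an immediate early transcription factor, by 1.14, -1.93 and 1.74, lower in BA only. NQO1, a target of NRF2, changed by 1.76, -1.10 and 0.86 and PRLR, the prolactin receptor, had changes of -1.90, 0.74 and 1.62. With 1 column per pair the differences between treatments were not tested.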

How the data were processed

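Messenger RNA of flash-frozen whole liver was sequenced as 50-cycle single reads in 2 runs, 1 rat in the first and the combined RNA of 3 rats in the second. The RPKM values were computed by the authors and deposited as the average of both runs, so that each column is 1 value without replicate, and the number of reads behind it is unknown. The submitters' processing notes name CASAVA and Bowtie 0.12.2 and the builds rn4 and mm8. The members and the gene lists were chosen with earlier results of these data known.

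Of 14692 genes listed, 8459 averaging 1 RPKM or more across 12 columns were kept. Changes were log2 ratios after 1 RPKM was added. limma 3.58.1 (R 4.3.3, with an intensity trend) was fitted to the 6 columns with the prefix as block, which left 2 residual degrees of freedom, and was tested on simulated data. The prefixes are treatments and not replicates, so that the p-value rests on the spread between treatments and not on that between animals of one treatment. Prefixes pair the columns by treatment, not by animal. Genes were named by rule: the 12 highest and 12 lowest means past both the 2-fold and the limma criterion, the leading and opposing members of each list, any member of the main metabolic, acute phase, clock and marker lists, the widest gaps between pairs, and the members nearest the 2-fold limit. Alternatives were pseudocounts of 0.1 and 5 RPKM, other filters, 2 rescalings, each pair left out, other folds and other limma fits. The split of the 4 h and 24 h counts without the BA pair was added after the data were seen. Some single genes are not reported here.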

Additional observations from a re-analysis of the deposited data

Results flagged for a closer look

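In 21 genes of all those tested, 1 pair was at least 2-fold higher and another at least 2-fold lower. In the 7 of them named in the text, the distance between the highest and the lowest pair change, on the log2(RPKM + 1) scale, was 7.83 for RPL30, 5.93 for MT1A, 4.44 for FGF21, 3.66 for EGR1, 3.52 for PRLR, 2.86 for NQO1 and 2.20 for TAT. In 9 of 39 gene lists the pair medians had opposite signs. In the 4 of these with medians of at least 0.25 in size both ways, the distance was 1.09 for the mitosis genes, 0.91 for the erythroid markers, 0.82 for the immediate early transcription factors and 0.70 for the cytosolic heat shock chaperones. The mitosis medians were -0.21 in Control, -0.71 in BA and 0.38 in BF, and 35 of 54 genes of S phase entry and mitosis had their highest level at 0 h in the BA column. With 1 column per treatment and time, none of these differences was tested.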

How the results depend on the processing

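The number of genes at least 2-fold higher in all pairs, 35, was 58 with a pseudocount of 0.1 RPKM, 17 with 5 RPKM, 56 with columns rescaled on the median gene, 86 with columns rescaled without the most abundant genes, 180 at 1.5-fold and 5 at 4-fold. The number lower, 228, was 140 with columns rescaled without the most abundant genes, 673 at 1.5-fold and 33 at 4-fold. With 1 pair left out, from 47 to 122 genes were higher and from 259 to 351 lower. By limma no gene was higher (0) or lower (0) without the filter on low values, 1034 were higher on the median gene and 1646 higher and 828 lower without the most abundant genes, and with 1 pair left out from 42 to 206 were higher and from 275 to 495 lower, with fewer columns in the fit. With no replicate block for the pairing, 431 genes were higher and 1507 lower. The median of the metabolic lists was -0.35 on the median gene and -0.22 without the most abundant genes. Rescaling without the most abundant genes turned the sign of the medians of the growth factor and IGF axis (0.051), iron handling (0.14), endothelial (0.028), stellate cell and matrix (0.11), NRF2 antioxidant (0.14) and cytosolic heat shock (0.23) lists, and rescaling on the median gene those of iron handling (0.006), NRF2 antioxidant (0.01) and cytosolic heat shock (0.11). The sign also turned for mitosis (0.08) and cytosolic heat shock (0.13) without the BA pair, for S phase entry (-0.05) and immediate early factors (-0.05) without BF, and for IL-6 and STAT3 (-0.08) and erythroid markers (0.11) without Control. Beyond the scalings' own shift of all genes, the cause was not tested. Read depth is unknown, so that its limit on weakly expressed genes could not be given.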
